A study of Homo sapiens with 6 samples.

Results

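Integrin subunits were followed in HepG2 cells, a human hepatoblastoma line with many hepatocyte functions, across a control or an HNF4A siRNA and 3 times of TGF-beta. The 10 subunits, chosen by gene name, were ITGA1, ITGA2, ITGA3, ITGA5, ITGA6, ITGAV, ITGB1, ITGB5, ITGB6 and ITGB8. A gene was read from a probe set that the platform annotation gives that symbol alone, and where several did, from the probe set with the highest mean signal. Of the 10 subunits 9 had such a probe set, out of 19775 genes in all, and 8 were bright enough to be tested among 11921 genes. All 4 probe sets of ITGB6 also carry the symbol of a noncoding RNA, so no value is given for it.

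Before TGF-beta, cells received siControl, a control siRNA, or siHNF4a, which targets the liver nuclear receptor HNF4A. They were left without TGF-beta (0 h) or were given 3 ng/ml of it for 1.5 h or 24 h, and each of the 6 combinations was read on 1 Affymetrix array. No combination was replicated, and the labels do not say whether arrays with the same siRNA came from 1 transfection. Because untreated cells at 1.5 or 24 h were not analysed here, TGF-beta and time in culture cannot be told apart. All groups share the same line and the transfection, and an siRNA may lower transcripts beside its target. The level of HNF4A is not reported here, so the knockdown was not checked.

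Integrins are heterodimers of an alpha and a beta subunit that span the cell membrane, bind extracellular matrix outside the cell and connect to actin inside it. The beta subunit ITGB1 joins many alpha subunits, among them the collagen receptors ITGA1 and ITGA2, the laminin receptors ITGA3 and ITGA6 and the fibronectin receptor ITGA5. ITGAV joins ITGB1, ITGB5, ITGB6 or ITGB8, and several of these pairs bind the arginine-glycine-aspartate motif in matrix proteins and in the latent form of TGF-beta. Hepatocytes keep few integrins in normal liver, and TGF-beta is known to raise integrin transcripts in several epithelial cells.

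Of the 10 genes 9 had an entry in a RefSeq table of promoters (GRCh38.p14), 8 of them at the annotated start of the gene. The promoters of ITGA2, ITGAV and ITGB1 are shown because these 3 subunits were higher with siHNF4a and higher at 24 h. Each window runs from 250 bases before the start to 50 bases after it, on the strand of the gene, at chr5:52989102-52989401 (plus), chr2:186589806-186590105 (plus) and chr10:32958181-32958480 (minus). Capitals mark matches on either strand to GGGCGG, the GC box, and to CAGAC, a short Smad-binding motif.
ITGA2: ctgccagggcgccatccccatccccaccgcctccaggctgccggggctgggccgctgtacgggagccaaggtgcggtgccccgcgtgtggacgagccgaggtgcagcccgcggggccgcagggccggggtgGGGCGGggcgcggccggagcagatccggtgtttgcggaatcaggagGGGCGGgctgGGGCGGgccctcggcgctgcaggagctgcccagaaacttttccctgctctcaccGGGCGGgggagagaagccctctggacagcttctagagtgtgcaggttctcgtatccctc
ITGAV: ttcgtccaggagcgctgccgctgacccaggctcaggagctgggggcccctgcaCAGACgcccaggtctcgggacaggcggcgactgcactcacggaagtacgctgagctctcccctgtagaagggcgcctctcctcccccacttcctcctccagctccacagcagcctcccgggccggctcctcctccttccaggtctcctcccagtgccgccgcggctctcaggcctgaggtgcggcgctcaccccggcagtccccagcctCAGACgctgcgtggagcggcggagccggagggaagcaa
ITGB1: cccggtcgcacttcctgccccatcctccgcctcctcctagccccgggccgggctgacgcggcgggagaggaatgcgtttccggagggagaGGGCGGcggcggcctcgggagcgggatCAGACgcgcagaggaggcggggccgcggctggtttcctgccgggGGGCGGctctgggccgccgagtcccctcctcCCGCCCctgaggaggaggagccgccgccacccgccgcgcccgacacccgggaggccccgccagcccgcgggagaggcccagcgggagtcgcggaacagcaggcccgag
The ITGA2 window held 4 GC boxes and no CAGAC, the ITGAV window 2 CAGAC and no GC box, and the ITGB1 window 3 GC boxes and 1 CAGAC. Of all 35116 RefSeq promoters, 45.3% had a CAGAC and 45% a GC box. No match to TGANTCA, the AP-1 motif (7.71% of all promoters), to TATAAA, the TATA box (11.5%), or to CAAAGTCCA, a core of the HNF4 motif (0.384%), lay in these 3 windows. The window of ITGA5 was the only 1 of the 8 at a gene start with an AP-1 match, which began at -6. The ITGA2, ITGAV and ITGB1 windows had GC contents of 72.7%, 70.7% and 78.3%, against a median of 58.7% over all promoters. A match describes letters and not a bound site, and no match speaks of this window alone.

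The values are MAS5 signals, intensities on a linear scale. The medians of the arrays were 12.4 to 13.3, and 12.9, the median of all signals, served as a floor below which values carry no order. Differences are on the log2 scale of floored signals with limma's standard error (SE), and a test was passed at a Benjamini-Hochberg adjusted p under 0.05 over all 11921 genes. All 8 hepatocyte-type markers, such as ALB and APOA1, were above the floor on every array, with a summed signal of 44155.1 to 51859.2. Of 6 fibroblast markers 1 to 3 exceeded the floor (summed signal 51.4 to 103.5), of 5 endothelial markers 1 did, PECAM1 (summed 62.9 to 147), and of 4 leukocyte markers 1 to 3 did (summed 42.2 to 132.2). COL3A1 and POSTN of fibroblasts and CDH5, VWF, KDR and TEK of endothelium were below the floor on every array. The endothelial and fibroblast sums were highest at 24 h. The endothelial sum was 147 in siControl and 128.6 in siHNF4a against 62.9 to 89.7 on the other arrays, and the fibroblast sum was 103.5 and 88.2 against 51.4 to 79.7. Their part in the values at 24 h was not tested. The siControl 0 h array, the reference for the later siControl arrays, stood apart at a control probe set of ribosomal RNA. This probe set, AFFX-HUMRGE/M10098_5_at, had a signal of 8599.7 there against 69.8 to 736.5 elsewhere. Other control probe sets were not compared here. In bulk RNA, fewer cells of a type and less RNA per cell cannot be told apart. With so few arrays, every value has limited precision.

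The late comparison asked which integrin transcripts differed at 24 h of TGF-beta. Of the 8 subunits tested 6 were higher in limma and none was lower. They were the collagen receptor subunits ITGA1 and ITGA2, the laminin receptor subunit ITGA6, ITGAV and the beta subunits ITGB1 and ITGB5. Over all genes 15.0% passed, 7.22% higher and 7.82% lower, and the median difference was 0.99 for the 8 subunits against -0.03 for all genes. The 8 include ITGA3 and ITGA5, which were bright enough only through their 24 h signals, so their part in this median was built in. The subunits were listed with earlier results of these data known, so the count describes them and is no test of the family.

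ITGA2, which pairs with ITGB1 to bind collagen, had signals of 787.8, 828.8 and 1670.4 at 0, 1.5 and 24 h in siControl. In siHNF4a its signals were 985.4, 1106.8 and 2537.2. Both 24 h arrays lay above the other 4 arrays, and siHNF4a lay above siControl at each time. ITGA2 rose by 1.22 ± 0.12 (SE, 2 arrays at each time), a 2.34-fold difference, with a limma adjusted p of 1.77e-05. It passed in each of 7 fits that left out an array or the 1.5 h arrays. Those without 1.5 h arrays keep the 24 h difference of the full fit, so they speak only of its spread.

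ITGAV, the alpha subunit of several receptors for vitronectin, fibronectin and latent TGF-beta, had 2032.3, 2076.9 and 4359.7 at 0, 1.5 and 24 h in siControl. The siHNF4a signals were 2761.4, 3229.4 and 5594.8. The signals at 0 and 1.5 h nearly coincided in siControl, and both 24 h arrays were above all others. The rise at 24 h was 1.06 ± 0.11, or 2.08-fold (limma adjusted p = 1.77e-05), and it passed in all 7 such fits. The calls of ITGA1, ITGA6 and ITGB5 were each lost in at least 1 of these fits.

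ITGA1, another collagen receptor subunit, had signals of 77, 84.3 and 152.5 in siControl and of 60.2, 51.7 and 116.2 in siHNF4a. Both 24 h arrays were above the other 4. Its rise was 0.97 ± 0.23 (1.96-fold, limma adjusted p = 0.0113). The call was lost without the siControl 0 h array (0.87, adjusted p = 0.101), the siControl 24 h array (1.04, 0.0965) or the siHNF4a 24 h array (0.90, 0.193), with the same direction.

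ITGA6, a laminin receptor subunit, had 588.4, 568.2 and 721.9 in siControl and 597.3, 623.4 and 888.5 in siHNF4a. The 24 h arrays were the highest in each arm, by a smaller margin than for the other called subunits. Its difference was 0.43 ± 0.14, or 1.35-fold, and the limma adjusted p was 0.0428. Without the siControl 0 h, siControl 24 h, siHNF4a 0 h or siHNF4a 24 h array it had 0.53, 0.54, 0.34 and 0.32, with adjusted p of 0.0707, 0.123, 0.427 and 0.427.

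Among the beta subunits, ITGB1 had signals of 2590.8, 2447.5 and 4405.6 in siControl and of 3952.6, 4714.1 and 6470.5 in siHNF4a. The 24 h signal was the highest in each arm, but the siControl 24 h value lay between the siHNF4a values at 0 and 1.5 h. ITGB1 rose by 0.74 ± 0.11 at 24 h (1.67-fold, limma adjusted p = 0.00043) and passed in all 7 fits with arrays left out. It did not pass with the mean of its probe sets, most of them dim (0.46, adjusted p = 0.0777), or in limma without its intensity trend (0.74, 0.0788). ITGB5, which pairs with ITGAV, had 757.9, 746.5 and 1255.4 in siControl and 752.1, 864.4 and 1375.8 in siHNF4a. Both 24 h signals exceeded the other 4, and the rise was 0.80 ± 0.13 (1.74-fold, limma adjusted p = 0.000612). Without the siHNF4a 24 h array ITGB5 had 0.78 and an adjusted p of 0.059, and without probe sets ending in _x_at or _s_at it had 0.48 (0.302).

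**Figure D1:**
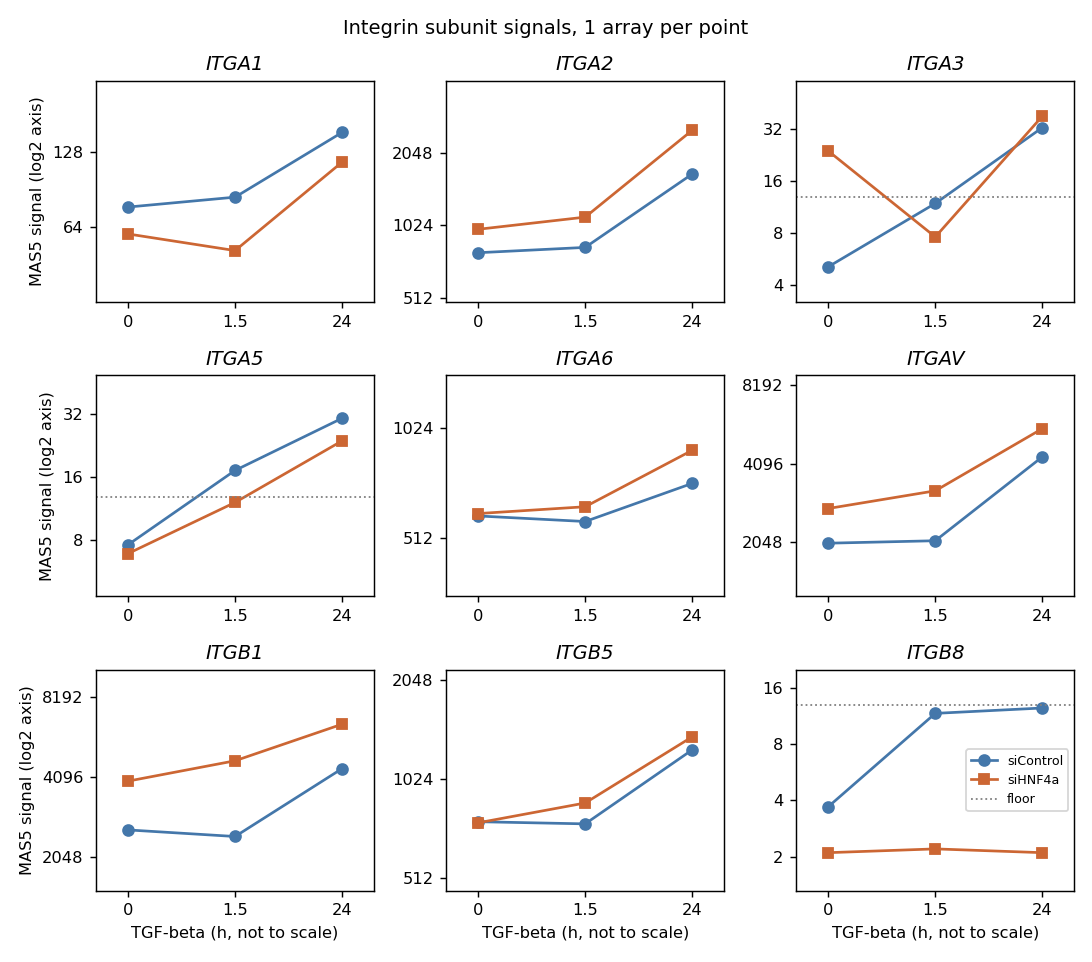
MAS5 signal (log2 axis) of the 9 integrin subunits with a probe set, at 0, 1.5 and 24 h of TGF-beta in siControl (circles) and siHNF4a (squares), 1 array per point, with the floor of 12.9 as a dotted line where it falls in the panel. The 24 h points are the highest of each arm for all but ITGB8 in siHNF4a. The siHNF4a line runs above siControl at every time for ITGA2, ITGAV and ITGB1, and by less for ITGA6.

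The other subunits were dim. ITGA3, a laminin receptor subunit, had 5.1, 11.9 and 32.8 in siControl and 24, 7.6 and 38.2 in siHNF4a, so it was above the floor on 3 arrays. ITGA5, the fibronectin receptor subunit, had 7.6, 17.2 and 30.5 in siControl and 6.9, 12.1 and 23.8 in siHNF4a, also above the floor on 3. Both 24 h signals were the highest of the 6 for either gene. With signals below the floor set to it, the fitted differences at 24 h were 1.01 ± 0.35 for ITGA3 (limma adjusted p = 0.0714) and 1.06 ± 0.35 for ITGA5 (0.0548), and neither passed. These sizes depend on the floor. Both genes entered the tests through their 24 h signals, so a difference at 24 h was built into their being tested, also under the alternatives. ITGA5 passed with the floor at the 40th percentile of all signals (1.70, adjusted p = 0.0116), with a pseudocount in place of the floor (0.99, 0.029) and without _x_at and _s_at probe sets (1.06, 0.0471). All 5 probe sets of ITGB8, a beta subunit that pairs with ITGAV, were below the floor on every array, the brightest at 3.7, 11.7 and 12.5 in siControl and 2.1, 2.2 and 2.1 in siHNF4a.

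The comparison of siRNAs asked which subunits differed when HNF4A was targeted. ITGB1, ITGAV and ITGA2 passed as higher in siHNF4a and were above siControl at each of the 3 times. None of the 8 tested subunits was lower by the test. Over all genes 8.06% passed, 3.90% higher and 4.16% lower, and the median difference was 0.26 for the 8 subunits and -0.04 for all genes. This comparison and the one at 24 h use the same 6 arrays.

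ITGB1 showed the largest siRNA difference of the 8, at 0.70 ± 0.09 (SE over 3 pairs of arrays) or 1.63-fold, with a limma adjusted p of 0.00021. The single-array differences were 0.61 at 0 h, 0.95 at 1.5 h and 0.55 at 24 h. ITGAV was higher by 0.48 ± 0.09 (1.39-fold, limma adjusted p = 0.00323), with 0.44, 0.64 and 0.36 at the 3 times. Both passed in each of 9 fits that left out an array or the pair of arrays of 1 time. Leaving out either array of a time gives the same siRNA difference as leaving out the pair. The 9 fits are therefore 1 check for each of the 3 times. ITGB1 did not pass with the mean of its probe sets (0.48, adjusted p = 0.0759), and neither it nor ITGAV or ITGA2 did without the intensity trend. ITGA2 was higher by 0.45 ± 0.10 (1.36-fold, limma adjusted p = 0.0115), with 0.32, 0.42 and 0.60 at 0, 1.5 and 24 h. Leaving out the siControl 24 h array (0.37, adjusted p = 0.209), the siHNF4a 24 h array (0.37, 0.216) or both (0.37, 0.225) ended the call of ITGA2.

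The remaining subunits did not pass for the siRNA. ITGA1 had -0.48 ± 0.19 (limma adjusted p = 0.146) and was lower in siHNF4a at each time, by -0.36, -0.71 and -0.39. ITGA6 had 0.15 ± 0.11 (limma adjusted p = 0.482) and was higher in siHNF4a at each time, by 0.02, 0.13 and 0.30. Its second probe set, 201656_at, had 0.24, 0.48 and -0.08, so it was not higher at 24 h. ITGB5 had 0.11 ± 0.10 (0.595), ITGA3 0.37 ± 0.29 (0.516) and ITGA5 -0.26 ± 0.29 (0.669). The 95% intervals of limma ran from -0.08 to 0.39 for ITGA6 and from -0.11 to 0.33 for ITGB5.

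**Figure D2:**
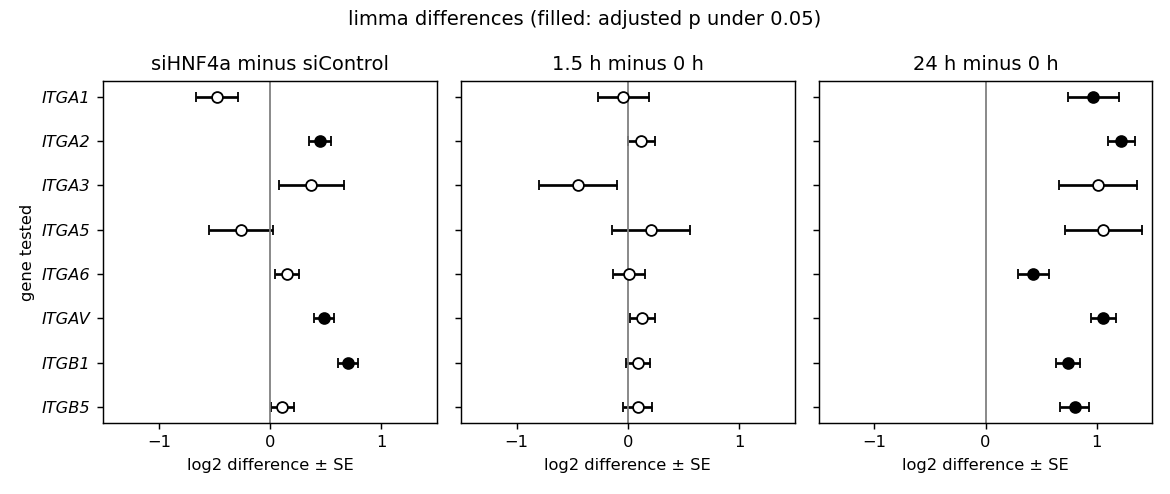
Log2 difference with limma's SE (horizontal axis) of the 8 tested subunits (vertical axis) for siHNF4a minus siControl, 1.5 h minus 0 h and 24 h minus 0 h, with filled points at an adjusted p under 0.05. The 24 h differences all lie right of 0, from 0.43 to 1.22, which for ITGA3 and ITGA5 was built into their being tested. The siRNA differences run from -0.48 for ITGA1 to 0.70 for ITGB1.

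The early comparison asked which subunits differed at 1.5 h. None of the 8 passed in limma, and none had an unadjusted p under 0.05, the smallest being 0.226 for ITGA3. Over all genes 0.0839% were higher and 0.0168% lower, with 364 genes at an unadjusted p under 0.05. The differences were 0.13 ± 0.11 for ITGAV, 0.12 ± 0.12 for ITGA2, 0.09 ± 0.11 for ITGB1, 0.09 ± 0.13 for ITGB5, 0.01 ± 0.14 for ITGA6 and -0.04 ± 0.23 for ITGA1. The 95% intervals of ITGAV and ITGB1 ran from -0.10 to 0.35 and from -0.15 to 0.32, which lie below the 24 h differences of these genes. The 1.5 and 24 h differences share the 0 h arrays. With 1.5 h as the reference, an alternative added after seeing the data, the 6 subunits that passed at 24 h passed again. ITGA3, which was tested only because of its 24 h signals, had a floored difference of 1.46 there (adjusted p = 0.0127), and nothing is read from it.

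The response at 24 h was then compared between the siRNAs. The rise of ITGA2 was 1.08 in siControl and 1.36 in siHNF4a, that of ITGAV 1.10 and 1.02, that of ITGB1 0.77 and 0.71, and that of ITGB5 0.73 and 0.87. For ITGA1 it was 0.99 and 0.95, and for ITGA6 0.30 and 0.57. The second ITGA6 probe set had the reverse order, 0.93 in siControl and 0.60 in siHNF4a. In limma, a further term set the siRNA difference at 24 h against the mean of the siRNA differences at the earlier times, and it gave 0.23 ± 0.21 for ITGA2, with a 95% interval from -0.25 to 0.72. It gave -0.18 for ITGAV (-0.61 to 0.25), -0.22 for ITGB1 (-0.67 to 0.23) and 0.03 for ITGB5 (-0.49 to 0.55). The adjusted p was 0.999 for each of the 8, and none had an unadjusted p under 0.05, with 0.292 the smallest. Of all genes 0% were called, and 541 had an unadjusted p under 0.05. The fit has 1 residual degree of freedom, and these intervals do not show equal responses.

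From the siControl 0 h array to the siHNF4a 24 h array, single arrays with no test, ITGA2 went from 787.8 to 2537.2 (3.22-fold), ITGAV from 2032.3 to 5594.8 (2.75-fold) and ITGB1 from 2590.8 to 6470.5 (2.50-fold). ITGB5 went from 757.9 to 1375.8 (1.82-fold), and ITGA6 and ITGA1 each came to 1.51-fold. Single arrays were also compared with the brightest probe set of each gene. At least 2-fold differences from 0 to 24 h were seen for ITGA2, ITGA3, ITGA5 and ITGAV in siControl. There 3.11% of all genes were as much higher and 2.60% lower. The values of ITGA3 and ITGA5 there are against the floor. In siHNF4a ITGA2 and ITGAV were, with 4.50% of all genes higher and 4.61% lower. With these probe sets no subunit reached 2-fold between the siRNAs. Of all genes 1.47%, 1.54% and 2.23% were higher at 0, 1.5 and 24 h and 1.63%, 3.26% and 3.05% lower. None did at 1.5 h against 0 h, where 0.973% were higher and 0.721% lower in siControl and 0.537% and 1.47% in siHNF4a. Dimmer probe sets did exceed 2-fold. Between the siRNAs, ITGB1 had log2 differences of 1.24, 1.18 and 1.26 with 1553530_a_at and 1.23, 1.16 and 1.04 with 1553678_a_at. ITGA2 had 1.43 at 24 h with 205032_at, and ITGB5 1.58 at 1.5 h with 214020_x_at. That ITGB5 probe set had -1.74 at 1.5 h against 0 h in siControl. From 0 to 24 h, dimmer probe sets of ITGA1 and ITGB1 also reached 2-fold.

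Several subunits were read by more than 1 probe set, and each probe set was fitted on its own, an alternative added after seeing the data. Of 26 probe sets of the 9 subunits 16 were bright enough, and 11 passed as higher at 24 h. Of all 22561 probe sets tested 5.87% were higher and 5.90% lower. The probe sets of ITGA3 and ITGA5, bright enough only through their 24 h signals, did not pass. For the siRNA 6 were higher and 0 lower, against 3.42% and 3.06% of all probe sets. For ITGB1, 1553530_a_at had 877.2, 990.5 and 1741.2 in siControl and 2066.9, 2248.5 and 4182.9 in siHNF4a. All 3 siHNF4a signals exceeded all 3 siControl signals there. This probe set gave an siRNA difference of 1.23 ± 0.09 (limma adjusted p = 2.93e-06) and 1553678_a_at gave 1.14 ± 0.10 (6.19e-06), against 0.70 for 211945_s_at, the brightest. At 24 h the 3 gave 1.00, 1.01 and 0.74. The other 4 ITGB1 probe sets were too dim to be tested.

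The dimmer ITGA2 probe set, 205032_at, had signals of 261, 197.6 and 603.3 in siControl and 391.9, 358.4 and 1625.7 in siHNF4a. It gave 0.96 ± 0.15 for the siRNA (limma adjusted p = 0.000803) and 1.63 ± 0.18 at 24 h (3.41e-05). Its rise at 24 h was 1.21 in siControl and 2.05 in siHNF4a, and the term between arms was 0.71 ± 0.26 with an adjusted p of 0.999. For ITGA1, 214660_at gave 1.67 ± 0.28 at 24 h (limma adjusted p = 0.00116) and -0.57 ± 0.23 for the siRNA (0.176). The second ITGA6 probe set, 201656_at, was nearly as bright as the first (mean signal 662.9 against 664.6). It had 0.76 ± 0.15 at 24 h (limma adjusted p = 0.00345) and 0.21 ± 0.12 for the siRNA (0.364). For ITGB5 the 3 dimmer probe sets had 0.35 to 0.48 at 24 h and did not pass, so its call rests on 201125_s_at.

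**Figure D3:**
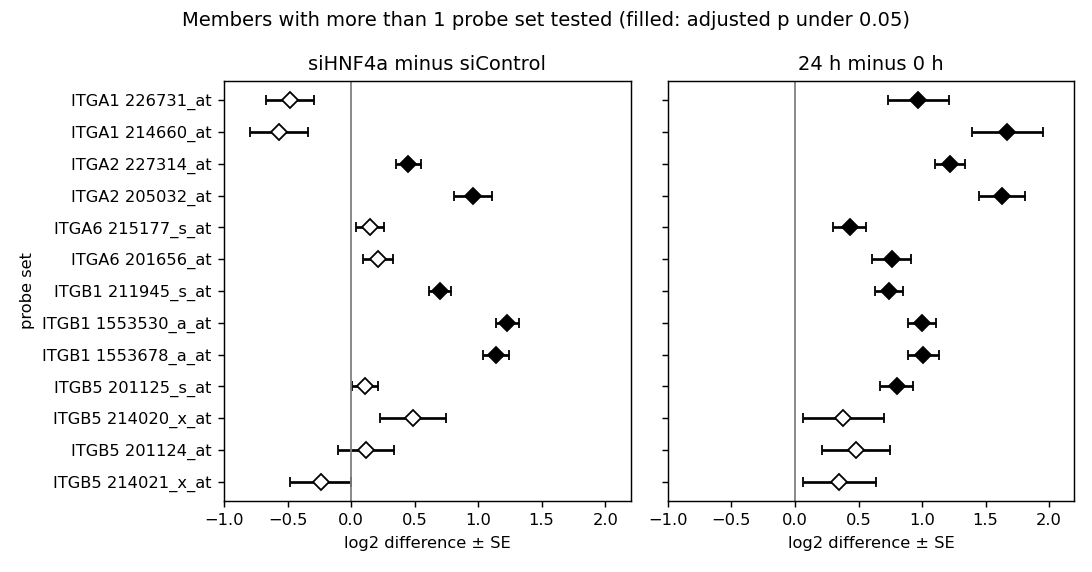
Log2 difference with limma's SE (horizontal axis) for each tested probe set (vertical axis) of the 5 subunits with more than 1, for the siRNA and for 24 h, filled at an adjusted p under 0.05. The 3 ITGB1 probe sets pass in both panels, at 0.70 to 1.23 for the siRNA, and 1 of the 4 ITGB5 probe sets passes at 24 h.

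The subunits varied together to different degrees over the 6 arrays. Pearson's r of log2 signals was 0.98 between ITGA2 and ITGAV, 0.98 between ITGA2 and ITGA6 and 0.94 between ITGAV and ITGB1, and it was 0.23 between ITGA1 and ITGB1. These are descriptions over 6 arrays that share the 24 h rise. Among 1206 genes above the floor on all arrays with an SD of at least 0.5, the genes most like ITGA2 were PDE4D (r = 0.9975), AKAP12 (0.997) and AMPD3 (0.9956). Those most like ITGAV were PHLDA2 (0.9958), PRKCH (0.9939) and ACTA1 (0.9924). Those most like ITGB1 were FAM135A (0.9969), FNBP1L (0.995) and CARD10 (0.9897). For ITGB5 they were YPEL2 (0.9985), MFSD6 (0.9963) and MBNL2 (0.9962). For ITGA6 they were ARG2 (0.9973), CLK4 (0.997) and PDGFC (0.9969), and for ITGA1 ATP6AP1L (0.9909), SLC16A4 (0.9839) and MTMR11 (0.9784).

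Other genes of the integrin system were described from lists. Over all genes tested 7.22% were higher at 24 h and 3.90% with siHNF4a, and each list count is to be read beside these shares. Of 16 further integrin subunits 9 were too dim to be tested. Of the leukocyte subunits, ITGA4, ITGAX and ITGB7 were among these 9, while ITGAE, ITGAL, ITGAM and ITGB2 were tested. ITGAE had 762.5, 655.4 and 699.9 in siControl and 655.9, 639.6 and 538.2 in siHNF4a. ITGAL and ITGAM were above the floor on 3 arrays and ITGB2 on 5. Of the 7 tested, ITGA10, a collagen receptor subunit, was higher at 24 h, with signals of 38.3, 37.9 and 85.7 in siControl and 32.9, 46.2 and 75.1 in siHNF4a (1.18 ± 0.27, limma adjusted p = 0.00928). The call was lost when the siControl 24 h (1.06), siHNF4a 0 h (1.04) or siHNF4a 24 h array (1.29) was left out. None of the 7 passed for the siRNA, and their median at 24 h was -0.18.

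Integrin ligands of the matrix were the list with the next highest share of genes higher at 24 h, 7 of 14 with none lower and a median of 0.48. Over all genes 7.22% were higher at 24 h and 3.90% for the siRNA. COL1A1, a fibrillar collagen, had 112.4, 108.1 and 508 in siControl and 90.9, 112.2 and 757.9 in siHNF4a and rose by 2.62 ± 0.21 (limma adjusted p = 3.7e-06). CCN1, a matricellular ligand of integrins, had 419.8, 590.2 and 1130.9 in siControl and 631.6, 843.5 and 4091.7 in siHNF4a, a rise of 2.06 ± 0.23 (limma adjusted p = 4.34e-05). COL4A2, a basement membrane collagen, rose by 1.31 and THBS1, the adhesive protein thrombospondin, by 1.05. NPNT, an integrin ligand found in basement membranes, rose by 0.92. Without _x_at and _s_at probe sets THBS1 had 0.21 at 24 h (adjusted p = 0.746). With averaged probe sets COL1A1 had 1.05 (0.0206) and THBS1 0.69 (0.0482). NPNT had 0.40 without the siControl 24 h array (adjusted p = 0.483) and 1.45 without the siHNF4a 24 h array (0.0367). THBS1 (0.98 ± 0.10, limma adjusted p = 3.69e-05) and CCN1 (0.99 ± 0.19, 0.0048) were also higher with siHNF4a, 2 of 14 with none lower, CCN1 not without the 24 h arrays, singly or as a pair (0.55 in each). For THBS1 the siRNA difference was 0.50 with averaged probe sets (adjusted p = 0.0987), and it did not pass without the intensity trend (0.98, 0.056). Of latent TGF-beta carriers and ligands 2 of 6 rose at 24 h, LTBP2, which belongs to the latent TGF-beta binding protein family (2.40 ± 0.29), and TGFB1 (0.85 ± 0.20), and none passed for the siRNA. TGFB1 had 0.52 without the siControl 0 h array (adjusted p = 0.127) and 0.43 with averaged probe sets (0.177).

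Inside the cell, 6 of 22 activators and adaptors rose at 24 h and none fell, with a median of 0.33. TNS1, which ties the beta tail to actin, had 15.3, 14.7 and 88.4 in siControl and 28, 24.1 and 154.9 in siHNF4a, a rise of 2.50 ± 0.29 (limma adjusted p = 5.48e-05). The paxillin relative TGFB1I1 rose by 1.91, the actin crosslinkers ACTN4 and ACTN1 by 0.87 and 0.68, and the kindlin FERMT1, an integrin activator, by 0.70. FERMT1 had 0.31 without the siHNF4a 0 h array (adjusted p = 0.506) and 1.09 without the siControl 0 h array (1.19e-05). For the siRNA TNS4 (0.47) and ACTN1 (0.36) were higher, 2 of 22. Over all genes 7.22% were higher at 24 h and 3.90% for the siRNA, and a small count near these shares is no result about a list. Of 14 kinases and docking proteins BCAR1 (0.73), NEDD9 (0.67) and FYN (0.48) rose at 24 h, and PAK2 (0.53) and CRKL (0.40) were higher with siHNF4a, with none lower. With averaged probe sets BCAR1 had 0.33, NEDD9 0.37 and CRKL 0.25, none of which passed, and BCAR1 had 0.44 without the siControl 0 h array (adjusted p = 0.387). PTK2, the focal adhesion kinase, had 0.23 ± 0.14 at 24 h (limma adjusted p = 0.322) and 0.40 ± 0.12 for the siRNA (0.0502). The talin gene TLN1 had -0.05 ± 0.31 at 24 h (limma adjusted p = 0.94). Of 8 tetraspanins and lateral partners PLAUR, the urokinase receptor (1.03), and the tetraspanins CD9 (0.62) and CD63 (0.41) rose at 24 h, and none passed for the siRNA. PLAUR had 0.67 without the siHNF4a 24 h array (adjusted p = 0.343), and CD9 0.15 with averaged probe sets (0.567). In none of these 6 lists did a gene pass at 1.5 h or in the comparison of responses between siRNAs. Most list calls were lost in at least 1 of the fits with arrays left out, which have 1 residual degree of freedom. Some were lost with little change in size, such as NEDD9 at 24 h (0.63 to 0.71), and others with more, such as FERMT1 (0.31 to 1.09). Of the 22 at 24 h, 6 passed in all 7 fits with arrays left out (COL1A1, CCN1, THBS1, LTBP2, TNS1 and TGFB1I1), and of the 6 for the siRNA only THBS1 passed in all 9, while TNS4, CRKL and PAK2 passed in none. The 9 fits for the siRNA are 1 check for each of the 3 times. Of the 28 list calls 18 were lost with averaged probe sets and 20 without the intensity trend.

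**Figure D4:**
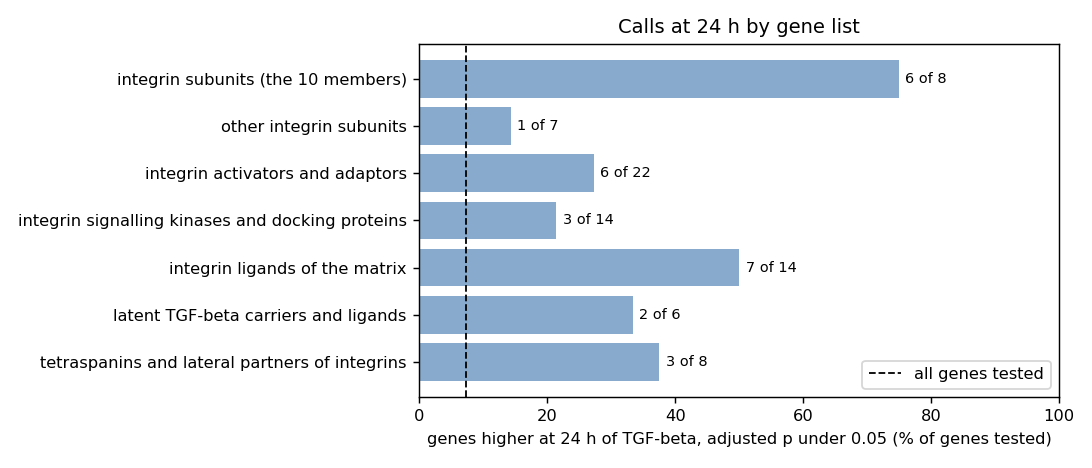
Share of tested genes that were higher at 24 h with an adjusted p under 0.05 (horizontal axis, percent) in 7 gene lists (vertical axis), with counts at the bars and the share of all genes tested, 7.22%, as a dashed line. The integrin subunits have 6 of 8 and the matrix ligands 7 of 14, and the subunits were listed with earlier results of these data known.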

How the data were processed

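HepG2 RNA of 6 combinations of siRNA and TGF-beta time was hybridised to 1 array each. The authors deposited linear-scale intensities, which are MAS5 5.0 signals from GCOS per the submitters' processing notes. Each array's mean, trimmed by 2% at each end, was 100.01, so signals were used with no further scaling. Of 54675 probe sets 41097 had 1 symbol, 1801 several and 11777 none. Signals under 12.9, the median, were raised to that value before taking log2. Genes with a mean signal above it were fitted with limma 3.58.1 in R 4.3.3 (lmFit, eBayes with an intensity trend, siRNA and time as terms, 2 residual and 12.6 prior degrees of freedom) with Benjamini-Hochberg adjustment. A second fit added a term between arms (1 residual, 8.4 prior). A true dependence on time counts as error in the first. P-values measure only the spread between these arrays. Each gene's spread was drawn toward a trend over all genes, which has the larger weight at these degrees of freedom. The fits were tested on simulated data. The subunits and gene lists were chosen with earlier results of these data known. Named were all subunits, up to 5 called genes per list and comparison by size, and the 3 genes most like each called subunit by Pearson's r. PTK2 and TLN1 are additions made with their values known. The HNF4A level is not reported here. Figures were made with Python 3.11.15 and matplotlib 3.10.9.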

Additional observations from a re-analysis of the deposited data

Results flagged for a closer look

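At 1.5 h against 0 h, some subunits above the floor moved in opposite directions in the siRNA arms, and these differences between arms were not tested. The share of all genes that did so was not counted, so nothing is read from the number of subunits. ITGA1 had 0.13 in siControl and -0.22 in siHNF4a on the log2 scale. ITGA6 had -0.05 and 0.06, ITGB1 -0.08 and 0.25, and ITGB5 -0.02 and 0.20. Each value compares 1 array with 1 other.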

How the results depend on the processing

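Without a replicate in any group, arrays were left out singly or as the pair of 1 time, and these fits had 1 residual degree of freedom. For the siRNA, leaving out either array of a time or the pair gives the same difference, so these are 1 check per time. At 24 h, fits without 1.5 h arrays keep the difference of the full fit. The count of subunits that passed for the siRNA, 3, was then 2 to 3, and the count at 24 h, 6, was 3 to 6. It was 3 (ITGA2, ITGAV and ITGB1) without the siHNF4a 24 h array. For the siRNA 1 passed when probe sets were averaged per gene (ITGAV) and 0 without the intensity trend. At 24 h 5 passed with averaged probe sets (ITGA1, ITGA2, ITGA5, ITGA6 and ITGAV) and 4 without the trend (ITGA1, ITGA2, ITGA5 and ITGAV). ITGA5, in both counts, did not pass as reported and was bright enough only through its 24 h signals, so nothing is read from it. Without the filter on dim genes 0 passed for either, though the 8 differences were the same, and over all genes 0 passed for the siRNA, 1 at 24 h and 639 in the comparison of responses, against 0 as reported, 24 with a pseudocount and 4 with a 40th percentile floor. The causes were not tested. Over all genes the counts of 961 and 1793 were 227 and 806 with averaged probe sets and 45 and 457 without the trend. Without the siHNF4a 24 h array they were 232 and 289. Median scaling moved the siRNA split over all genes from 465 higher and 496 lower to 558 and 385. Quantile normalization, median scaling, floors at the 40th and 60th percentiles and a pseudocount left 3 for the siRNA and 5 to 7 at 24 h. ITGA6 was lost with median scaling, and the counts of 7, at the 40th percentile floor and with the pseudocount, include ITGA5. In the comparison of responses 0 subunits passed under each alternative run, and single arrays could not be left out there. At 1.5 h 0 passed throughout. Of the 28 calls of list genes 28 were lost without the filter and 20 without the siHNF4a 24 h array.

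Changes of sign were seen for differences that did not pass. At 1.5 h averaged probe sets gave 0.04 for ITGA1, -0.07 for ITGA2 and -0.29 for ITGB5, and without probe sets ending in _x_at or _s_at ITGB5 had -0.35. With arrays left out, ITGA1 ran from -0.21 to 0.12 at 1.5 h, ITGA6 from -0.09 to 0.10, ITGB1 from -0.10 to 0.27 and ITGB5 from 0 to 0.18. For the response between siRNAs averaged probe sets gave -0.11 for ITGA6, 0.09 for ITGB1 and -0.11 for ITGB5, and without _x_at and _s_at probe sets ITGA6 had -0.44 and ITGB1 0.05. No paired analysis was possible because no group had a replicate and the labels give no replicate numbers, and time already stands as a block in the siRNA comparison.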

Other observations

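The ITGB5 probe set 214020_x_at read 41.5 on the siControl 1.5 h array and 124.3 to 192.4 on the other 5, while 201125_s_at of the same gene read 746.5 there and 757.9 at 0 h in siControl.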
